A study of Mus musculus with 6 samples.

Results

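Untreated bone marrow-derived macrophages were divided into cycling and non-cycling cells by the transcripts of 8 genes of proliferating cells, and the expression of every other gene was compared between both classes within each genotype. The 8 genes were Mki67, Top2a, Cdk1, Ccna2, Ccnb1, Birc5, Cenpf and Tpx2. A cell with at least 2 unique molecular identifiers (UMIs, each a tag for 1 captured transcript) summed over these genes was called cycling, and a cell with 0 was called non-cycling. The name non-cycling stands for the absence of these 8 transcripts and not for a measured exit from the cycle. The name cycling likewise stands for at least 2 such UMIs and not for measured division. The members were thus chosen by measured values, the UMIs of the 8 genes in these same cells. Of 509 untreated cells, 383 fell into either class. They comprised 82 cycling and 98 non-cycling wild-type cells and 46 cycling and 157 non-cycling Rad21-/- cells, out of 1362 cells in the whole data set. The rule left aside 58 wild-type and 64 Rad21-/- cells with 1 UMI of the 8 genes, and also 1 wild-type and 3 Rad21-/- wells with more than 25000 UMIs.

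Cells enter division through DNA synthesis in S phase and segregate their chromosomes in M phase after the gap phase G2. The transcripts of each step accumulate in turn, those for replication proteins and histones around S phase and those for the spindle, kinetochore and mitotic kinases in G2 and M. Macrophages grown from bone marrow divide in the presence of M-CSF, which L929-conditioned medium supplies, and mature cells leave the cycle. Cohesin, a ring complex whose kleisin subunit is RAD21, holds sister chromatids together from S phase to anaphase and also folds interphase chromatin.

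Both groups of cells were homozygous for creERT2 at the Rosa26 locus, which is expressed in many cell types, and both received 200 nM 4-hydroxytamoxifen 96 h after plating. In the wild-type group the Rad21 alleles were not floxed, and in the Rad21-/- group floxed Rad21 alleles were deleted by the induced recombinase. The mice, of both sexes and aged from 6 weeks to 6 months, had a mixed C57BL/6 and strain-129 background. Untreated macrophages were taken at day 7 without lipopolysaccharide (LPS), while the other 4 samples of the series had received 10 ng/ml LPS for 2 or 8 h. Cells were sorted singly into wells and profiled by MARS-seq, which counts the 3′ ends of transcripts. Each genotype and time point is 1 sample, so that no difference below has a replicate check and none was tested. Exact 95% intervals are given, which cover counting error only.

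The data set held 18429 genes. Untreated cells carried 2106 to 76362 UMIs, with a median of 5863 in wild-type and 5577 in Rad21-/- cells, and came from 8 library pools, each of which contained both genotypes. No well was named in more than 1 sample, and 0 pairs of cells had identical counts. Cycling cells were deeper than non-cycling cells. The median was 6906 against 5199.5 UMIs in wild-type and 7182 against 4812 in Rad21-/- cells. To compare both classes at the same depth, each cell was thinned at random to 3000 UMIs. This left out 5 cycling and 12 non-cycling wild-type cells and 1 cycling and 13 non-cycling Rad21-/- cells that were shallower. The comparisons therefore rest on 77 cycling and 86 non-cycling wild-type cells and on 45 and 144 Rad21-/- cells.

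Rad21 transcripts were first examined as a check of the labels. In wild-type macrophages, 36 of 82 cycling cells had a Rad21 UMI (43.9%, interval 32.96% to 55.3%), compared with 17 of 98 non-cycling cells (17.3%, 10.4% to 26.3%). In Rad21-/- macrophages the transcript was seen in 3 of 46 cycling cells (6.52%, 1.37% to 17.9%) and 2 of 157 non-cycling cells (1.27%, 0.155% to 4.53%). Rad21 was thus low in both classes of Rad21-/- cells, and its few UMIs did not lie in cycling cells alone. The position of the floxed segment relative to the 3′ ends that were counted is not given in the sources used here. After thinning, Rad21 was found in 20 of 77 cycling (25.97%, 16.6% to 37.2%) and 8 of 86 non-cycling (9.30%, 4.10% to 17.5%) wild-type cells.

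The macrophage label was compared with marker lists. Every one of 32 macrophage markers, among them Csf1r, Adgre1, Cd68, Lyz2 and the C1q chains, was in the matrix. Their summed level per wild-type cell before thinning ranged from 50 to 1477 UMIs among cycling (median 254) and from 47 to 464 among non-cycling cells (median 192). For Rad21-/- the ranges were 54 to 782 (median 260) and 37 to 700 (median 181). Markers of progenitors and granulocyte precursors were represented by 4 of 17 genes and did not exceed 6 UMIs in any cycling or non-cycling cell, and the median was 0 in each class. Neutrophil markers, with 4 of 13 genes in the matrix, reached at most 1 UMI per cell, and Csf3r was the single member with a thinned UMI. Monocyte markers had medians of 10 to 15 UMIs per cell in the 4 classes and reached 56, mostly from S100a4, and dendritic cell markers had medians of 3 to 8 and reached 27, mostly from Bst2. Lymphocyte markers reached at most 8 UMIs, and mast cell, basophil and erythroid as well as fibroblast and stromal markers at most 4.

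The UMIs of the 8 genes chose the classes, so their values describe the rule and carry no test. Cycling cells made up 34.5% of wild-type (28.4% to 40.9%) and 17.2% of Rad21-/- macrophages (12.9% to 22.3%) with at most 25000 UMIs. The share was lower in Rad21-/- cells in 7 of 8 pools, and ranged over pools from 12.5% to 47.6% for wild-type and from 6.67% to 31.9% for Rad21-/- cells. Since classes were set on all UMIs and cycling cells were deeper, the shares were also taken on thinned cells, where they were 18.8% and 9.56%. With 1 sample per genotype, the genotype cannot be told apart from other differences between both cultures. Top2a, which encodes the topoisomerase that untangles sister chromatids, gave 143 UMIs in cycling wild-type cells and was seen in 64.6% of them. Mki67, the classical proliferation antigen, gave 117 UMIs in 61.0% of these cells. In cycling Rad21-/- cells Top2a gave 59 UMIs in 63.04% of cells and Mki67 gave 67 UMIs in 41.3%. Cdk1, the kinase that drives mitotic entry, was found in 41 of 82 wild-type and 26 of 46 Rad21-/- cycling cells, whereas its partner Ccnb1 was found in 24.4% and 23.9%.

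Cycling cells were uneven in these transcripts. In wild-type the median was 3.5 UMIs of the 8 genes per cycling cell and the highest was 47, while in Rad21-/- the median was 3 and the highest 51. At the lower edge of the class, 30 of 82 wild-type and 19 of 46 Rad21-/- cycling cells had 2 UMIs, just inside the threshold, and the cells with 1 UMI lay just outside it. At least 6 UMIs were present in 35 wild-type (42.7%) and 12 Rad21-/- (26.1%) cycling cells. All 8 genes were seen together in 5 wild-type cells and 1 Rad21-/- cell. The plot of cells by UMIs of the 8 genes shows this spread.

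**Figure D1:**
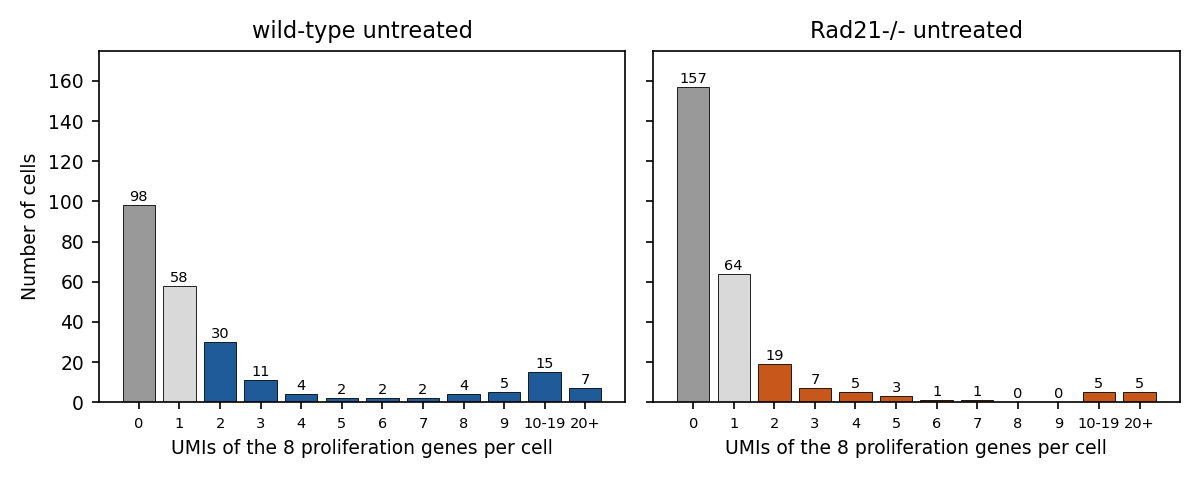
Number of untreated cells with at most 25000 UMIs (y axis) by UMIs of the 8 proliferation genes per cell before thinning (x axis), for each genotype. Dark grey bars are non-cycling cells (98 and 157), light grey bars are cells with 1 UMI (58 and 64), and coloured bars are cycling cells, which extend to 47 UMIs in wild-type and 51 in Rad21-/-.

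Promoters are shown for the gene of the 8 with the most UMIs in cycling wild-type cells, Top2a, and for Ube2c and Dnmt1. Among genes with at least 50 thinned UMIs over both classes, these had the largest wild-type ratios of cycling over non-cycling cells in the lists for G2/M and mitosis and for DNA replication. For replication 2 genes reached that number, and sparser members had larger ratios. Each window runs from 250 bases before to 50 bases after a RefSeq gene start in GRCm38.p6 and is written 5′ to 3′ on the strand of the gene. Capitals mark matches, on either strand, to CCAAT, the box that the factor NF-Y binds, and to TTTGAA, the core of the cell cycle homology region of G2/M genes. The Top2a window is chr11:99024140-99024439, minus strand, the Ube2c window chr2:164769679-164769978, plus strand, and the Dnmt1 window chr9:20959839-20960138, minus strand.
Top2a: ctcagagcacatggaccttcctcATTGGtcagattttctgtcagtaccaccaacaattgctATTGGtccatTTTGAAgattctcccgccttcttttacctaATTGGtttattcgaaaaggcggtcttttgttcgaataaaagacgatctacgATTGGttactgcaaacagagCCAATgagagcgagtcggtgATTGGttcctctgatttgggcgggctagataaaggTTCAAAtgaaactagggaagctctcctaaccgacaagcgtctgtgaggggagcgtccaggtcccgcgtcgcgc
Ube2c: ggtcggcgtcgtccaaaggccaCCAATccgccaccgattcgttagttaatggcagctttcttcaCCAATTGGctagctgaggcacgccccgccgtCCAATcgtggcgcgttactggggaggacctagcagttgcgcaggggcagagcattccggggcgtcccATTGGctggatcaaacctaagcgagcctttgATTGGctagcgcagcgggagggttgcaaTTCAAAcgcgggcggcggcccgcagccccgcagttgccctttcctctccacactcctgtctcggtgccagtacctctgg
Dnmt1: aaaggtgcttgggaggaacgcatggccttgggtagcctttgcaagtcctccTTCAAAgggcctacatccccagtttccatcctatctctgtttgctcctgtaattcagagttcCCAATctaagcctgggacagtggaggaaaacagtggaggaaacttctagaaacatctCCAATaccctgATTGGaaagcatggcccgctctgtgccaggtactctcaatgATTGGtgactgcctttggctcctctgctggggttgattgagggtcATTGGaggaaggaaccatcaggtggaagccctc
Top2a and Ube2c each held 6 CCAAT matches, 2 of which overlap in Ube2c, and Dnmt1 held 5. TTTGAA occurred 2 times in Top2a and 1 time in each of the other windows. The table lists 3 starts for Dnmt1, of which the outermost is shown. The other windows, which begin at 20952930 and 20952574, held 0 and 3 CCAAT matches. Counts of 3′ ends do not show which start was used, so the Dnmt1 window shown need not be the one active in these cells. Of 32851 promoter windows in the table, 37.4% held CCAAT, 0.271% held it at least 5 times (the lowest count of the windows shown), and 17.9% held TTTGAA. A form of the E2F site, TTCCCGC, was in none of the 3 windows and in 4.60% of all windows. These are matches of letters and not measured binding.

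Outside the 8 genes, few genes differed by 2-fold or more between both classes. Genes with at least 50 thinned UMIs over both classes were compared, and a gene was called at a log2 ratio of mean UMIs per thinned cell, cycling over non-cycling, of at least 1 or at most -1. In wild-type 1517 genes entered. Of these 30 were higher in cycling cells (1.98%) and 13 were lower (0.857%), with a median log2 ratio of -0.04. In Rad21-/- 1771 genes entered, with 21 higher (1.19%), 38 lower (2.15%) and a median of -0.02. The excess of lower genes in Rad21-/- depended on the setting, with 12 higher and 11 lower by CPM without thinning. With no UMI minimum and 1 UMI added to each class, 5040 were higher and 755 lower. This last setting cannot show a direction in Rad21-/-, where cycling cells are fewer and equal UMIs in both classes give a log2 ratio of 1.68, past 2-fold. In wild-type equal UMIs give 0.16. The minimum applies to the sum over both classes. A sparse gene such as Ube2c therefore entered through the class in which it was high, and in Rad21-/-, with 45 cycling against 144 non-cycling cells of equal thinned depth, non-cycling cells supplied most of the UMIs that count toward the minimum. Counts and medians over the genes that entered are given as a description. In a second random draw of the same wild-type cells all 30 higher genes kept their direction, but 17 passed 2-fold again, so that the lower part of each list depends on the draw. In wild-type 14 of the 30 passed in the second draw, at 5000 UMIs per cell and without thinning. They were Ube2c, Hist1h2ap, Hist1h2aa, Hmgb2, H2afx, Hist1h1e, Stmn1, Trim17, Tuba1c, Tuba1b, Hist3h2a, Gm14892, Tubb5 and Tubb4b. In Rad21-/- 6 of 21 did so, namely Hist1h2ap, Ptma, Trim17, Tubb5, Tuba1b and Hist3h2a. Of the lower genes 0 of 13 in wild-type and 2 of 38 in Rad21-/- passed in all of these settings. Wild-type cycling and non-cycling cells had medians of 1735 and 1665 detected genes per thinned cell, and Rad21-/- cells 1631 and 1616.

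Genes of G2 and mitosis formed the clearest group. The rule favours this group, since the 8 genes are themselves largely genes of G2 and mitosis. Among them are Cdk1 and its partner Ccnb1, which act at mitotic entry. Summed over 73 genes for the spindle, kinetochore, mitotic kinases and cyclin destruction, none of which is among the 8, wild-type cycling cells held 13.2 UMIs per thinned cell and non-cycling cells 3.55, a log2 ratio of 1.90 (1.72 to 2.09). In Rad21-/- the values were 11.2 and 3.08, a log2 ratio of 1.86 (1.67 to 2.05). Most of these genes were too sparse to pass the UMI filter, but 72 of the 73 in wild-type and 67 of the 73 in Rad21-/- had a ratio above 0. Over all genes that entered, 44.8% in wild-type and 47.8% in Rad21-/- had a ratio above 0. Those genes have at least 50 UMIs, unlike most of this list, so the shares are not matched in depth. Of the 5 wild-type genes that passed the filter 4 were called higher, with a median of 1.37, and of 3 in Rad21-/- 0 were called, with a median of 0.61. The list was compiled with earlier results of these data known, and is described by its counts without a test.

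Ube2c encodes the ubiquitin-conjugating enzyme with which the anaphase-promoting complex marks mitotic cyclins for destruction. It gave 53 UMIs in cycling and 2 in non-cycling wild-type cells, and was present in 32.5% and 2.33% of them. Its log2 ratio of 4.89 (2.96 to 7.97) was the largest in wild-type among genes with at least 50 UMIs, and sparser genes with larger ratios are given below. In Rad21-/- Ube2c gave 17 and 2 UMIs, a log2 ratio of 4.77, below the UMI filter. Cdca3, a protein of mitotic entry, behaved alike in its counts, with 39 against 2 UMIs in wild-type and 17 against 4 in Rad21-/-. Cenpa, the centromeric histone H3 variant, gave 25 against 5 and 17 against 14 UMIs. Tuba1c, an alpha-tubulin, had log2 ratios of 2.24 in wild-type and 0.90 in Rad21-/-, and Tubb4b, a beta-tubulin, of 1.37 and 1.68. Arl6ip1, which shapes the endoplasmic reticulum, had the most UMIs of the list and ratios of 1.09 and 0.42. Not every member was higher in cycling cells, since Hn1 stood at 0.09 and 0.61, and Pttg1, which encodes securin, at -0.70 and -0.98 with 31 and 22 UMIs in all. The condensin subunits, which compact mitotic chromosomes, summed to log2 ratios of 1.56 (0.95 to 2.21) in wild-type and 1.68 (1.12 to 2.23) in Rad21-/-, and Smc4 held the most of their UMIs.

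Histones, chromatin proteins and tubulins carried the largest numbers of transcripts among the genes that differed. The list of 34 genes summed to 22.1 against 8.93 UMIs per thinned cell in wild-type, a log2 ratio of 1.31 (1.19 to 1.43), and to 16.5 against 7.94 in Rad21-/-, a log2 ratio of 1.05 (0.92 to 1.19). Of 18 members that passed the filter in wild-type 8 were called higher and 0 lower, with a median of 0.83, and of 13 in Rad21-/- 4 were called higher and 0 lower, with a median of 0.75. Hist1h2ap, a replication-dependent H2A gene, gave 214 UMIs in cycling and 10 in non-cycling wild-type cells, and 62 and 18 in Rad21-/-. Its log2 ratio was 4.58 in wild-type and 3.46 in Rad21-/-, where a single cell held 22.5% of the UMIs. Hist1h1e, a linker histone, stood at 62 against 8 UMIs (3.11), and H2afx, the H2A variant phosphorylated at DNA breaks, at 82 against 7 (3.71) in wild-type. In Rad21-/- these genes were below the filter, with 30 against 15 and 18 against 12 UMIs. H2afz, the variant of promoter nucleosomes, had ratios of 1.51 and 0.54. The replacement histone genes H3f3a and H3f3b, which are used outside S phase, were closer to 0, with wild-type ratios of 0.25 and 0.36 and Rad21-/- ratios of 0.30 and 0.26. Copies of H2A genes are nearly identical and the symbol Hist1h2ap matches 2 RefSeq entries, so that the split of reads among them is uncertain. Trim17 (2.86 and 1.68) and Hist3h2a (2.04 and 1.41) overlap in the genome, and whether the counting used strand is not given in the sources used here.

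Among the other chromatin and cytoskeletal genes, Hmgb2, a DNA-bending protein, gave 47 against 4 UMIs in wild-type (3.71) and 10 against 16 in Rad21-/- (1.00, below the filter). Stmn1, which destabilizes microtubules, gave 48 against 7 (2.94) and 15 against 8 UMIs (2.58, below the filter). Tubb5, the main beta-tubulin, was found in 76.6% of cycling and 50% of non-cycling wild-type cells, and in 64.4% and 38.2% of Rad21-/- cells. Its log2 ratio was 1.62 (1.21 to 2.05) and 1.64 (1.18 to 2.10). Tuba1b gave 164 against 39 UMIs in wild-type, a log2 ratio of 2.23 (1.72 to 2.77), and 45 against 51 in Rad21-/-, which is 2.82-fold per cell (log2 interval 0.89 to 2.10). Both tubulins were therefore abundant in non-cycling cells as well, unlike Ube2c and Hist1h2ap. Ptma, an acidic nuclear protein, was called in Rad21-/- cells (1.68) and stood at 0.57 in wild-type. The plot of genes in both genotypes shows Hist1h2ap, Tubb5 and Tuba1b beyond 2-fold in each.

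**Figure D2:**
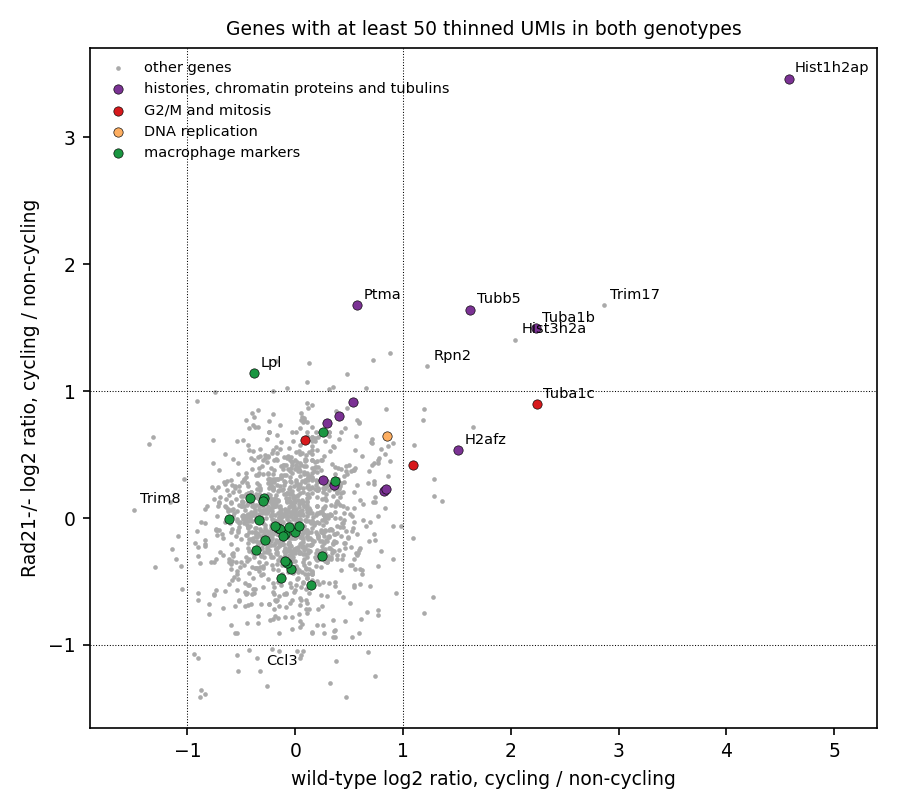
Log2 ratio of mean UMIs per thinned cell, cycling over non-cycling, in untreated wild-type (x axis) and Rad21-/- (y axis) macrophages, for the 1355 genes with at least 50 thinned UMIs in each genotype. Points are genes, colours mark gene lists, and dotted lines mark 2-fold. Hist1h2ap stands apart at 4.58 and 3.46, macrophage markers lie around 0, and Lpl is above 2-fold in Rad21-/- alone.

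Genes of DNA replication had a smaller summed ratio than those of mitosis, an order that the rule favours as stated above. Over 52 genes for origin licensing, the fork and the sliding clamp, wild-type cycling cells held 7.18 and non-cycling cells 3.87 UMIs per thinned cell, a log2 ratio of 0.89 (0.69 to 1.09). Rad21-/- cells held 4.31 and 2.62, a log2 ratio of 0.72 (0.46 to 0.97). Above 0 were 42 of 52 genes in wild-type and 38 of 52 in Rad21-/-, against 44.8% and 47.8% of the less sparse genes that entered. Of 2 that passed the filter in wild-type 1 was called, and of 1 in Rad21-/- 0 were. Pcna, the sliding clamp, gave 100 against 62 UMIs in wild-type (0.85) and 24 against 49 in Rad21-/- (0.65). Dnmt1, which copies DNA methylation onto the new strand, gave 36 against 20 (1.01) and 14 against 20 (1.16, below the filter), and thus lies at the threshold in wild-type. 2810417H13Rik, the PCNA-associated factor also named Pclaf, was more one-sided, with 36 against 1 UMIs in wild-type and 8 against 3 in Rad21-/-. The helicase subunits Mcm3 and Mcm6, by contrast, gave 8 against 11 and 11 against 15 UMIs in wild-type, ratios of -0.30 and -0.29.

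The 24 enzymes of nucleotide supply summed to a log2 ratio of 0.76 (0.49 to 1.03) in wild-type and 0.58 (0.25 to 0.91) in Rad21-/-. Of these enzymes 21 and 18 were above 0, against 44.8% and 47.8% of the less sparse genes that entered. Dck, deoxycytidine kinase of the salvage route, was called in wild-type with 51 against 28 UMIs (1.02), and gave 7 against 24 in Rad21-/- (-0.10, below the filter). Thymidylate synthase Tyms gave 16 against 1 UMIs in wild-type and 7 against 4 in Rad21-/-, and the ribonucleotide reductase subunit Rrm1 gave 21 against 4 and 6 against 9. DNA repair genes summed to log2 ratios of 1.15 (0.81 to 1.49) in wild-type and 0.62 (0.24 to 0.98) in Rad21-/-. In wild-type 27.6% of the UMIs of this list came from H2afx alone.

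Cohesin and its partners were examined gene by gene. In wild-type the 15 genes for cohesin subunits, loaders, regulators and CTCF summed to 2.73 UMIs per cycling and 1.80 per non-cycling cell, a log2 ratio of 0.60 (0.29 to 0.91), and 13 of the 15 were above 0. In Rad21-/- they summed to 2.07 and 1.92, a log2 ratio of 0.10 (-0.25 to 0.45), and 8 of the 15 were above 0. Of the less sparse genes that entered, 44.8% in wild-type and 47.8% in Rad21-/- were above 0, so that 8 of 15 is near that share. Whether both genotypes differ in this ratio was not tested. Rad21 itself gave 24 thinned UMIs in cycling and 8 in non-cycling wild-type cells, a log2 ratio of 1.74 (0.54 to 3.11), and 3 and 1 UMIs in Rad21-/-. Stag2, a cohesin subunit, had ratios of 1.09 and -0.22, Ctcf of 0.25 and -0.26, and the loader Nipbl gave 19 against 16 UMIs in wild-type and 10 against 29 in Rad21-/-. Smc3, the ring subunit, gave 16 in each wild-type class, and 1 against 23 UMIs in Rad21-/-. Before thinning, Smc3 was seen in 21.7% of cycling (10.9% to 36.4%) and 24.8% of non-cycling (18.3% to 32.4%) Rad21-/- cells, so its thinned ratio rests on the draw. Esco2, which acetylates cohesin in S phase, gave 5 against 0 UMIs in wild-type. Before thinning, an Esco2 UMI was seen in 7 of 82 cycling and 1 of 98 non-cycling wild-type cells (8.54% and 1.02%, the latter with an interval up to 5.55%).

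Regulators of G1 had smaller summed ratios than the G2/M list in both genotypes. The 33 measured G1 cyclins, CDK inhibitors and E2F genes summed to a log2 ratio of 0.22 (0.02 to 0.43) in wild-type and 0.53 (0.28 to 0.78) in Rad21-/-. Above 0 were 23 members in wild-type and 21 in Rad21-/-, and 9 and 12 were below 0, against 44.8% and 47.8% above 0 of the less sparse genes that entered. In each genotype 3 members passed the filter and 0 were called. Of all genes 1.98% and 1.19% were called higher, so that 0 of 3 is near that share. Cdkn1a, which encodes the CDK inhibitor p21, gave 85 against 94 UMIs in wild-type, a log2 ratio of 0.01 (-0.43 to 0.45), and was seen in 64.9% of cycling and 54.7% of non-cycling cells. In Rad21-/- it gave 28 against 66 UMIs. Cdkn1b, the inhibitor p27, was too sparse for a ratio, with 5 against 2 UMIs in wild-type and 1 against 6 in Rad21-/-, and Myc gave 3 against 1 and 1 against 8. Targets of p53 summed to 0.09 (-0.12 to 0.29) in wild-type and 0.11 (-0.15 to 0.36) in Rad21-/-, intervals that include 0.

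**Figure D3:**
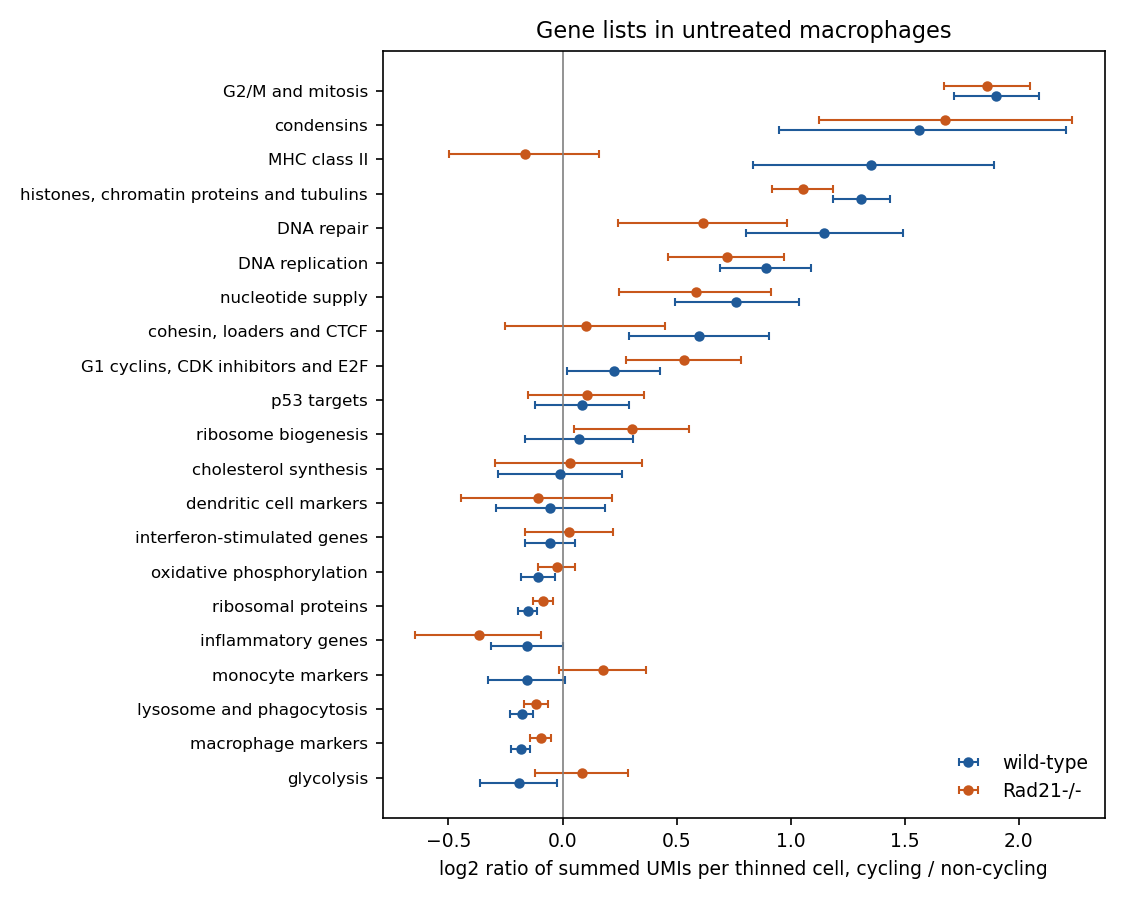
Log2 ratio of UMIs summed over each gene list per thinned cell, cycling over non-cycling (x axis), in untreated wild-type and Rad21-/- macrophages, for lists with at least 50 UMIs in both genotypes (y axis). Points are ratios and bars are exact 95% intervals for counting error. G2/M and mitosis is at 1.90 and 1.86, while macrophage markers, lysosomal genes and ribosomal proteins lie slightly below 0, and the wild-type ratio of MHC class II rests mainly on 1 cell.

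Macrophage transcripts made up a slightly smaller share of the thinned UMIs in cycling cells. Before thinning, cycling cells were deeper and held more of them, with medians of 254 against 192 UMIs in wild-type and 260 against 181 in Rad21-/-. The 32 macrophage markers summed to 111 UMIs per cycling and 126 per non-cycling thinned wild-type cell, a log2 ratio of -0.18 (-0.23 to -0.14), and to 104 and 111 in Rad21-/-, a log2 ratio of -0.10 (-0.14 to -0.05). Below 0 were 23 of 32 markers in wild-type and 22 of 32 in Rad21-/-, while 44.8% and 47.8% of all genes that entered were above 0. Of the 26 and 24 that passed the filter 0 were called lower in either genotype, with medians of -0.11 and -0.08, close to those of all genes. Of all genes 0.857% and 2.15% were called lower, so that 0 of so few is near that share. At a fixed 3000 UMIs per cell a larger share for some genes lowers that of the rest. With the 8 genes and the lists for G2/M and replication taken out before thinning, the ratio of this list was -0.18 in wild-type and -0.05 in Rad21-/-. The list of histones, chromatin proteins and tubulins stayed in, so this took out only part of the larger share in cycling cells. Cells of both classes overlapped, and no cycling cell exceeded the highest non-cycling cell, at 221 UMIs in wild-type and 213 in Rad21-/-.

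Lyz2, macrophage lysozyme, gave 1241 UMIs in cycling and 1747 in non-cycling wild-type cells, a log2 ratio of -0.33 (-0.44 to -0.23), and 446 and 1442 in Rad21-/-, a log2 ratio of -0.01 (-0.17 to 0.14). Lgals3, a galectin, stood at -0.30 and 0.13, and Gpnmb, a glycoprotein of lysosome-rich macrophages, at -0.36 and -0.25. The cathepsin genes Ctsb and Ctsd had ratios of -0.14 and -0.09 in wild-type and of -0.09 and -0.12 in Rad21-/-. C1qb and Trem2 were at 0.04 and 0.00 in wild-type. Lpl, lipoprotein lipase, was the single marker past 2-fold, with 29 against 42 UMIs in Rad21-/- (1.14), and stood at -0.38 in wild-type. Lysosomal and phagocytic genes summed to -0.18 (-0.23 to -0.13) and -0.12 (-0.17 to -0.07), and ribosomal protein genes to -0.15 (-0.19 to -0.11) and -0.09 (-0.13 to -0.04). Rps13 was called higher in Rad21-/- (1.02), but had a ratio of -0.04 in the second draw.

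Called lower in cycling cells of both genotypes were 0 genes. Of all genes that entered, 0.857% in wild-type and 2.15% in Rad21-/- were called lower. An overlap of 0 between such short lists is near these shares and is not read as a difference between genotypes. In wild-type, Trim8, an E3 ubiquitin ligase, had the smallest ratio among genes with at least 50 UMIs, at 13 against 41 UMIs, 2.82-fold lower per cell (log2 interval -2.52 to -0.57). Wdr1, a cofactor of actin disassembly, gave 14 against 39 (-1.32), Tnfaip2 20 against 55 (-1.30) and the hexokinase Hk3 24 against 60 UMIs (-1.16). Sqstm1, the autophagy receptor p62, gave 46 against 107 UMIs (-1.06, -1.59 to -0.55) and was present in 40.3% of cycling and 61.6% of non-cycling cells. In Rad21-/- the ratios were 0.07 for Trim8, 0.64 for Wdr1, -0.39 for Tnfaip2, 0.13 for Hk3 and -0.37 for Sqstm1, and 7 of the 13 genes were below 0. Of all genes that entered in Rad21-/-, 47.8% were above 0, so that 7 of 13 is near the share of all genes. At 5000 UMIs per cell 0 of the 13 passed 2-fold in wild-type.

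Among Rad21-/- genes with at least 50 UMIs the smallest ratios belonged to Wdr92 (-2.78) and 4933404O12Rik (-2.61), but 1 cell held 70.4% and 89.3% of their UMIs. Without the cell with the most UMIs in each class 4933404O12Rik was at 0.70, above 0, and Wdr92 at -1.57. Ypel3 gave 5 against 58 UMIs (-1.86). Ccl3, a chemokine that attracts leukocytes, gave 33 against 244 UMIs, a log2 ratio of -1.21 (-1.78 to -0.68), and was seen in 40.0% of cycling and 57.6% of non-cycling Rad21-/- cells. In wild-type Ccl3 gave 65 against 91, a log2 ratio of -0.33 (-0.81 to 0.15). Ccl3 accounted for 39.2% of the UMIs of 30 inflammatory genes in Rad21-/-. That list summed to -0.37 (-0.64 to -0.10) in Rad21-/- and -0.15 (-0.31 to 0.00) in wild-type. In Rad21-/- 12 members were above 0 and 13 below, and in wild-type 11 and 15. The Rad21-/- sum thus leans on Ccl3 and does not describe the list as a whole. Interferon-stimulated genes summed to -0.06 (-0.17 to 0.05) and 0.03 (-0.16 to 0.22), intervals that include 0.

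The difference in mitotic transcripts was not evenly spread over cycling cells. At 0, 1, 2, 3 to 5 and at least 6 UMIs of the 8 genes, wild-type cells held 3.55, 3.89, 6.50, 6.64 and 21.3 UMIs of the G2/M list per thinned cell. The corresponding values in Rad21-/- were 3.08, 3.32, 3.21, 10.4 and 24.8. Rad21-/- cells just inside the threshold thus resembled those just outside it in this list, while wild-type cells with 2 UMIs stood above those with 1. The bins of 3 to 5 UMIs held 14 cells in each genotype, and in Rad21-/- those of 2 and of at least 6 UMIs held 19 and 12, so these values rest on few cells. Histones, chromatin proteins and tubulins ran from 8.93 at 0 UMIs to 33.1 at 6 or more in wild-type, and from 7.94 to 27.9 in Rad21-/-. DNA replication genes ran from 3.87 to 8.57 and from 2.62 to 5.58. At 0, 2, 3 to 5 and at least 6 UMIs, macrophage markers were at 126, 117, 133 and 96.9 UMIs per cell in wild-type and at 111, 118, 97.8 and 89.1 in Rad21-/-, lowest in the cells with the most proliferation transcripts. The median depth before thinning was 5559, 5679, 6089.5, 6751.5 and 7952 UMIs over the wild-type bins, and 5193, 6381.5, 7975, 6608 and 6910 over those of Rad21-/-, where the bin of 2 UMIs was the deepest.

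**Figure D4:**
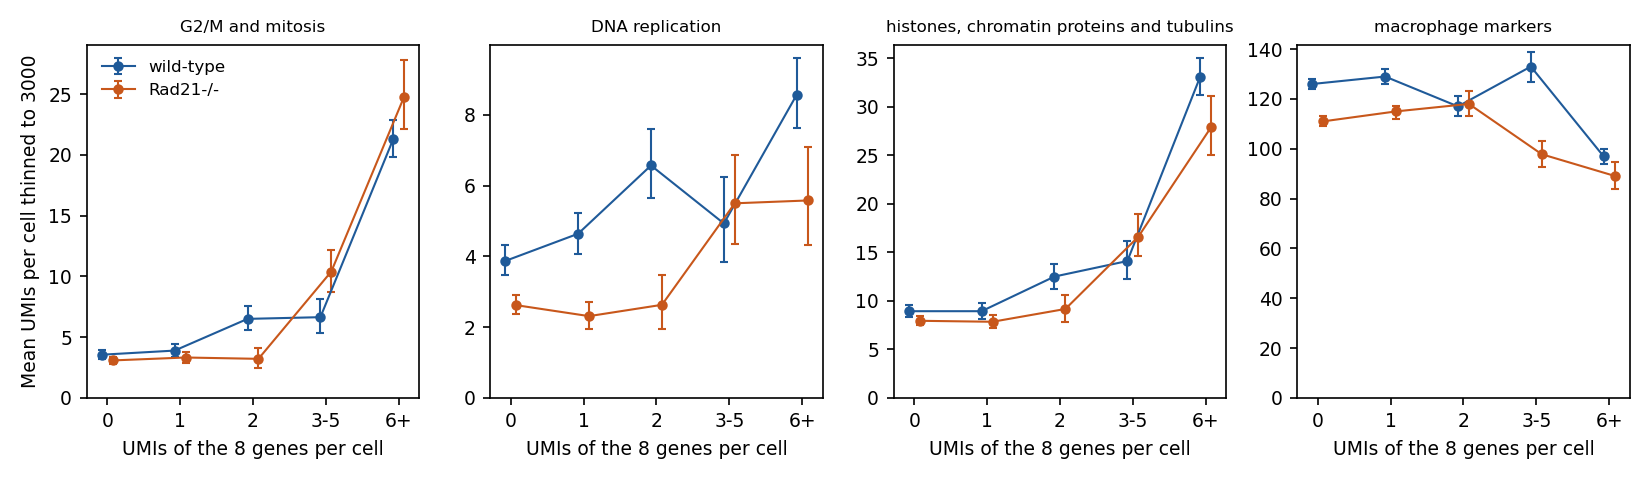
Mean UMIs per cell thinned to 3000 (y axis) of 4 gene lists, by UMIs of the 8 proliferation genes per cell (x axis), for untreated wild-type and Rad21-/- macrophages. Bars are exact 95% intervals for counting error. The G2/M list reaches 21.3 and 24.8 UMIs in cells with at least 6 UMIs, and macrophage markers are lowest there, at 96.9 and 89.1.

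Both classes overlapped cell by cell. The median of the G2/M list was 10 UMIs per cycling and 3 per non-cycling thinned wild-type cell, and 40 of 77 cycling cells (51.9%) lay above the highest non-cycling cell, at 9. In Rad21-/- the medians were 5 and 3, and 18 of 45 cycling cells (40.0%) exceeded the highest non-cycling cell, at 8. At or below the non-cycling median were 11 cycling cells in wild-type and 14 in Rad21-/-. For the DNA replication list the medians were 6 and 3 UMIs in wild-type, and 15 of 86 non-cycling cells lay at or above the cycling median. In Rad21-/- the medians of that list were 3 and 2, and 66 of 144 non-cycling cells did so. Within pools that had at least 3 cells of each class, the G2/M ratio was above 0 in 8 of 8 wild-type pools (1.36 to 3.07) and 6 of 6 Rad21-/- pools (1.23 to 2.42). The macrophage marker ratio was below 0 in 7 of 8 and 6 of 6 pools, and the DNA replication ratio above 0 in 8 of 8 and 5 of 6.

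The same rule was applied to the 4 LPS-treated samples. Cells called cycling made up 34.3% of wild-type and 11.4% of Rad21-/- cells at 2 h, and 10.3% and 12.6% at 8 h. The G2/M list had a log2 ratio of 1.84 (1.62 to 2.07) in wild-type at 2 h, close to the untreated value, and of 0.39 (0.10 to 0.66) at 8 h. In Rad21-/- it was 0.65 (0.30 to 0.99) at 2 h and 0.71 (0.43 to 0.99) at 8 h. Histones, chromatin proteins and tubulins stood at 1.36 in wild-type at 2 h and 0.12 (-0.07 to 0.31) at 8 h. In Rad21-/- they stood at 0.09 (-0.14 to 0.31) and 0.29 (0.10 to 0.47). Condensins at 8 h were at -0.50 (-2.44 to 0.98) and -0.47 (-2.00 to 0.77), and DNA replication at 0.44 and 0.46. Outside wild-type cells at 2 h, the name cycling thus rests mainly on the 8 genes. The 4 LPS-treated samples held 21 to 61 thinned cycling cells, and whether the ratios differ between times was not tested. The macrophage marker ratio at 2 and 8 h was -0.08 and -0.04 for wild-type cells. For Rad21-/- cells it was 0.08 and 0.10, opposite in sign to untreated Rad21-/- cells.

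Of the 30 genes higher in untreated wild-type cycling cells, 26 were above 0 in untreated Rad21-/- cells and 26 in wild-type cells at 2 h. At 8 h 21 were above 0 in wild-type, and in LPS-treated Rad21-/- cells 16 were at 2 h and 23 at 8 h. Of all genes that entered, 45.3% were above 0 in wild-type at 2 h and 50.1% at 8 h, and 50.1% and 51.3% in Rad21-/-, so that 16 of 30 is close to the share of all genes. Higher in both untreated genotypes by 2-fold were 6 genes, which are 20% of the wild-type and 28.6% of the Rad21-/- genes, while 0 were lower in both. Those 6 were Hist1h2ap, Trim17, Tubb5, Tuba1b, Hist3h2a and Rpn2, the last a subunit of the oligosaccharyltransferase. Of all genes that entered, 1.98% and 1.19% were called higher, and 0.857% and 2.15% lower, so 0 lower in both is near that share. In Rad21-/- 19 of the 30 wild-type genes passed the UMI filter, and the others, such as Ube2c, could not be called there. Hist1h2ap gave 164 against 1 UMIs in wild-type at 2 h, but 1 against 9 at 8 h and 0 against 1 and 3 against 5 in Rad21-/- at 2 and 8 h. Ube2c gave 28 against 0 UMIs in wild-type and 3 against 0 in Rad21-/- cells at 2 h, and 4 against 4 and 5 against 0 at 8 h. Tubb5 stood at 3.10 (2.39 to 3.90) in wild-type at 2 h and at 0.66 (-0.22 to 1.46) at 8 h, and at 0.54 and 0.58 in Rad21-/-. The 13 genes lower in wild-type cycling cells were below 0 in 6 to 10 cases in the other 5 samples, in which 45.3% to 51.3% of all genes that entered were above 0.

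**Figure D5:**
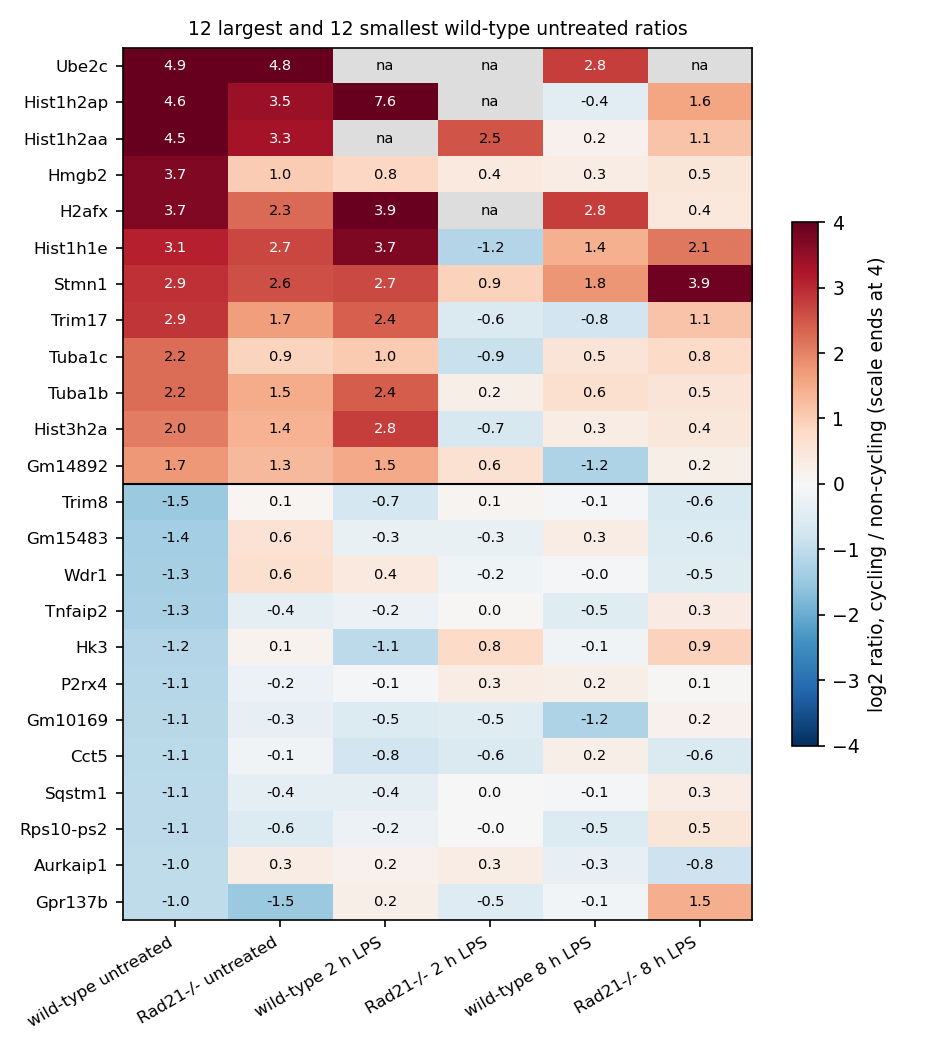
Log2 ratio of mean UMIs per thinned cell, cycling over non-cycling, of the 12 genes with the largest and the 12 with the smallest ratio among those with at least 50 UMIs in untreated wild-type cells (rows) in each of the 6 samples (columns). Colour runs to 4 in both directions, and na marks a class with 0 UMIs. Tubulin and histone genes are positive in wild-type at 2 h of LPS, and the lower genes of untreated wild-type cells scatter around 0 elsewhere.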

How the data were processed

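Single macrophages were profiled by MARS-seq. The authors mapped reads with GEMTools to GRCm38.p4 with Gencode M8, used unambiguous reads only, merged UMIs up to 2 edits apart, and dropped wells with over 15% spike-in or under 60% mapped reads. The values deposited are raw UMI counts per gene and cell. The methods state a filter on genes in under 5% of cells, but 5709 genes (30.98%) in the table lie below it.

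Groups came from the labels, which name 6 samples with 1 per genotype and time. Cells were classed by the UMIs of the 8 genes and thinned without replacement to 3000 UMIs in 1 seeded draw. Genes with at least 50 thinned UMIs over both classes were compared, the 8 genes left out. Intervals are Clopper-Pearson intervals of the cycling share of UMIs or of cells at 95%, and a count of 0 was taken to allow 3 counts. No doublet caller was run, and wells with more than 25000 UMIs were left out. The code was tested on simulated data. Python 3.11.15, numpy 2.4.6, pandas 2.3.3, scipy 1.17.1 and matplotlib 3.10.9 were used. Promoters came from a RefSeq table of GRCm38.p6.

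The 8 genes and 26 gene lists were chosen with earlier results of these data known. Genes named were the 8 genes, the 12 largest and 12 smallest ratios in each genotype, in each list up to 5 members with the most UMIs and those past 2-fold, the cohesin genes, and Cdkn1a, Ccnd1, Cdkn1b, Cdkn1c and Myc. Some other list members (2810417H13Rik, Cdca3, Cenpa, Pttg1, Tyms, Rrm1, Mcm3, Mcm6, H3f3a and the sparser members of the MHC class II and glycolysis lists) were named after their values were seen, and a gene that the rule names is not reported here. The alternatives tried were a second draw, 5000 UMIs, CPM without thinning, other thresholds for cells and genes, a depth window, removal of proliferation genes before thinning, and pools weighted equally or left out.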

Additional observations from a re-analysis of the deposited data

How the results depend on the processing

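No paired analysis over replicates was possible because each genotype and time is 1 sample and no result comes from a test. Both classes shared library pools, and their ratios within pools are given above. Of the values for the share of genes called, the G2/M, DNA replication and macrophage lists and the share of cycling cells, 150 stayed within their error or within 1.5-fold under an alternative, 70 moved further and 0 reversed. Among other lists 66 moved and 1 reversed, and among single genes 7.11% of values moved and 7 reversed. The cause was not tested. Alternatives with cycling cells from 6 UMIs and without the highest cell were chosen after seeing the data.

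The genes higher in wild-type cycling cells, 30 as reported, were 47 at 5000 UMIs per cell (2.46% of the genes compared), 14 with cells of 4000 to 9000 UMIs (1.46%), 49 with pools weighted equally (3.23%), 270 with at least 20 UMIs per gene (5.84%), 3153 with no minimum and 1 UMI added (17.1%), and 107 at 1.5-fold (7.05%). The genes lower, 13 as reported, were 4 by CPM without thinning (0.237%), 26 with cycling cells from 3 UMIs (2.14%), 42 with classes from thinned UMIs (2.84%), 6 in the depth window (0.627%), 29 with equal pools (1.91%), 180 from 20 UMIs (3.89%), 1537 with no minimum (8.34%) and 36 with cycling cells from 6 UMIs (3.39%), and 7.51% of the genes passed 1.5-fold. With a pool left out they were 6 to 15 (0.455% to 1.30%), lowest without the sixth pool in the order of the pool names. For Rad21-/-, 21 genes were higher as reported, against 12 by CPM (0.642%), 50 from 3 UMIs (3.24%), 70 with thinned classes (3.45%), 10 in the window (0.840%), 50 with equal pools (2.82%), 248 from 20 UMIs per gene (5.01%), 5040 with no minimum (27.4%), 130 at 1.5-fold (7.34%) and 81 from 6 UMIs (5.90%), and 13 to 29 with a pool left out (0.866% to 2.15%), lowest without the fifth. The 38 lower genes became 20 at 5000 UMIs (1.09%), 11 by CPM (0.588%), 77 from 3 UMIs (4.997%), 127 with thinned classes (6.26%), 17 in the window (1.43%), 85 with equal pools (4.80%), 313 from 20 UMIs per gene (6.33%), 755 with no minimum (4.10%) and 170 from 6 UMIs (12.4%), while 9.54% passed 1.5-fold. With a pool left out they were 22 to 49 (1.41% to 3.57%), with 25 without the fifth and 22 without the sixth. The Rad21-/- counts with no minimum do not show a direction, since equal UMIs in both classes have a log2 ratio of 1.68 there.

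The G2/M ratio in wild-type was 2.27 from 3 UMIs, 2.29 with thinned classes, 1.67 in the window, 2.14 with equal pools and 2.59 from 6 UMIs. For Rad21-/- it was 2.47 from 3 UMIs, 2.47 with thinned classes, 2.21 with equal pools, 3.01 from 6 UMIs and 1.67 to 2.08 with a pool left out. The DNA replication ratio was 1.15 from 6 UMIs in wild-type, and 1.08 from 3 UMIs, 1.04 with thinned classes and 1.09 from 6 UMIs in Rad21-/-. The macrophage marker ratio in wild-type was -0.13 at 5000 UMIs, -0.23 from 3 UMIs, -0.32 with thinned classes, -0.12 in the window, -0.38 from 6 UMIs and -0.22 to -0.12 with a pool left out, nearest 0 without the sixth. For Rad21-/- it was -0.15 at 5000 UMIs, -0.25 from 3 UMIs, -0.19 with thinned classes, -0.32 from 6 UMIs and -0.158 to -0.0615 with a pool left out. The share of wild-type cycling cells was 21.8% from 3 UMIs, 18.8% with thinned classes and 14.7% from 6 UMIs, and for Rad21-/- cells 10.1%, 9.56% and 4.49%.

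Reversed values were 0.26 for Gpr137b in wild-type at 5000 UMIs and -1.37 for MHC class II in wild-type without the highest cell. For Rad21-/- a second draw gave -0.042 for Rps13, 0.32 for 2810428I15Rik and 0.05 for Pla2g15, cycling cells from 6 UMIs gave -0.66 for Rps13, and 4933404O12Rik was 0.70 without the highest cell and -3.57 to 1.19 with a pool left out. A gene with 50 UMIs over both classes has an interval that spans several-fold, so ratios of sparse genes are limited by depth.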

Other observations

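Lists of metabolic genes differed little between cycling and non-cycling cells. In wild-type, glycolytic genes summed to a log2 ratio of cycling over non-cycling cells of -0.19 (-0.36 to -0.02) and 15 of 17 were below 0. Hk3 was the 1 member with at least 50 UMIs past 2-fold, while the most abundant member, the pyruvate kinase Pkm, gave 134 against 152 UMIs. Among Rad21-/- cells the list summed to 0.09 (-0.12 to 0.29), with 7 of 17 below 0. Of all genes that entered, 44.8% in wild-type and 47.8% in Rad21-/- were above 0. Oxidative phosphorylation genes stood at -0.11 (-0.18 to -0.03) in wild-type and -0.03 (-0.11 to 0.06) in Rad21-/- cells, and 0 of 37 that passed the filter were called in either genotype. Of all genes 1.98% and 1.19% were called higher and 0.857% and 2.15% lower, so that 0 of 37 is near that share. Cholesterol synthesis genes had ratios of -0.01 and 0.03. Genes for ribosome biogenesis, led by Npm1 and Ncl, summed to 0.07 (-0.17 to 0.31) in wild-type and 0.31 (0.05 to 0.56) in Rad21-/- macrophages.

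MHC class II genes, which present antigen to T cells, were carried by a few cells. In wild-type they were seen in 14.3% of cycling and 24.4% of non-cycling thinned cells, with 103 and 45 UMIs, and a single cycling cell held 93 UMIs. The summed log2 ratio was 1.35 (0.84 to 1.89) with this cell and -1.37 when the highest cell of each class was left out. H2-Eb1 gave 22 UMIs in cycling and 0 in non-cycling wild-type cells. Of Rad21-/- cells the highest cells held 90 and 134 UMIs, and the ratio was -0.16 (-0.50 to 0.16). Monocyte markers summed to -0.16 and 0.18, with 92% and 94.5% of their UMIs from S100a4, and dendritic cell markers to -0.05 and -0.11, mostly from Bst2. Progenitor markers, chiefly Kit, gave 20 against 12 UMIs in wild-type and 8 against 38 in Rad21-/-. Lymphocyte markers, chiefly Ighm, gave 18 against 19 and 22 against 95 UMIs. Mast cell, basophil and erythroid markers gave 17 against 25 and 7 against 49, fibroblast and stromal markers 13 against 9 and 2 against 13, and neutrophil markers 4 against 1 and 0 against 8 UMIs.

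The level of interferon-stimulated genes was similar in both classes and unlike in both samples. Wild-type cells held 16.6 UMIs of this list per cycling and 17.3 per non-cycling thinned cell, whereas Rad21-/- cells held 6.58 and 6.44. The gap between genotypes was not tested, since each is 1 sample.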
